A study of Mus musculus with 4 samples.

Results

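The genes examined here are the type 1 cytokines and death ligands of CD8+ T cells and the receptor through which interleukin 12 (IL-12) drives them: *Ifng*, *Tnf*, *Il2*, *Lta*, *Ltb*, *Fasl*, *Tnfsf10*, *Il12rb1* and *Il12rb2*. They were chosen by gene symbol, 9 of the 15981 genes listed in at least 1 of the 4 tables used here. A killer T cell of the type 1 program secretes IFN-γ, encoded by *Ifng*, which acts on tumor and myeloid cells through the IFN-γ receptor. It also makes ligands of the TNF superfamily, of which Fas ligand (*Fasl*) and TRAIL (*Tnfsf10*) can start apoptosis in a target cell that carries their receptors. IL-12 favors this program, and T cells sense it through a receptor of 2 chains encoded by *Il12rb1* and *Il12rb2*.

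RNA was sequenced from Tc1 and Tc9 cells sorted from subcutaneous B16 melanomas of C57BL/6 mice, and each comparison below asks how the Tc9 cells differed from the Tc1 cells. Both groups were Thy1.1+ Pmel-1 CD8+ T cells, which carry a transgenic receptor for the melanoma antigen gp100, primed with anti-CD3 and anti-CD28 antibodies and cultured for 5 days. Tc9 cells were polarized with IL-4, TGF-β and an anti–IFN-γ antibody and Tc1 cells with recombinant human IL-2, and both then stayed in medium with IL-2. The cells were given intravenously to Thy1.2+ hosts with 10-day tumors and were sorted 14 days later. By the study's methods for this tumor model, all hosts also received cyclophosphamide on the day before transfer, and peptide-pulsed dendritic cells and human IL-2 after it. The sorted cells of 6 mice were pooled into 2 libraries per group. Whether the 6 mice were per group or in all is not stated, and p-values measure only the spread between these pools.

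Values are expected counts (reads assigned to a gene by estimation, so fractions occur) and FPKM, in which fragments are divided by transcript length and library size, both as deposited by the authors. Each table lists genes in order of identifier and stops at a different one, so the genes are not seen in the same libraries. The table of Tc1 replicate 1 reached none of the 9. Tc1 replicate 2 and both Tc9 libraries reached *Ifng*, *Il2*, *Lta*, *Ltb*, *Fasl*, *Il12rb1* and *Il12rb2*, and only the 2 replicate 2 libraries reached *Tnf* and *Tnfsf10*. Library depths were 30822953 to 31927162 counts and differed by at most 1.036 times. Only the depth of Tc9 replicate 2 is a total of listed counts, and the others were estimated from the ratio of count to FPKM. Of the 7 genes reached by 3 libraries, 6 passed a filter on low counts and were tested with edgeR's quasi-likelihood test, across the 2622 genes of that range that passed it. In that fit the single Tc1 library was assumed to vary like the Tc9 libraries. For the other 2 genes there is no test, only the log2 ratio of Tc9 to Tc1 replicate 2 with a 95% interval that covers counting error alone.

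The type 1 cytokine *Ifng* and the lymphotoxin gene *Lta* were the genes of the group that fell in Tc9 cells. *Ifng* was 3.12-fold lower and *Lta* 2.15-fold lower than in the Tc1 library. *Fasl* stood 1.75-fold lower in Tc9 cells without passing the test, and *Ltb*, *Il12rb1* and *Il12rb2* did not pass it either. Between the replicate 2 libraries, *Tnfsf10* was 2.69-fold higher and *Tnf* 1.31-fold lower in Tc9 cells, and *Il2* was at or under the detection floor in the 3 libraries that reached it. Of the 6 genes tested, 2 were called lower and 0 higher at an adjusted p under 0.05, beside 3.2% of all 2622 genes called lower and 7.51% called higher in the same fit. At an unadjusted p under 0.05, 3 of the 6 were lower (*Fasl* being the third) and 0 higher, beside 10.2% and 16.5% of all genes. DESeq2's adjusted p also gave 3 lower and 0 higher, beside 4.0% and 9.04% of all genes. Over all genes edgeR called 197 higher and 84 lower, and 321 higher and 217 lower with DESeq2 size factors in its fit. Without the filter on low counts neither *Ifng* (edgeR adjusted p = 0.203) nor *Lta* (0.209) passed. RNA was taken from bulk populations, in which fewer cells expressing a gene and less RNA per cell cannot be told apart.

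*Ifng* (gene ID 15978, chr10:118441046-118445894, plus strand, GRCm38) had 15303 counts in Tc1 replicate 2, 5097 in Tc9 replicate 1 and 4700 in Tc9 replicate 2. As FPKM the levels were 440.98, 139.2 and 132.6 in the same order. Both Tc9 libraries were below the Tc1 library and close to each other, with a mean of 136 ± 4.67 FPKM (SD, n = 2). The log2 fold change, Tc9 over Tc1, was -1.64 (SE 0.21), with an adjusted p of 0.00747 by edgeR's quasi-likelihood test. The 2 Tc9 libraries themselves differed by a log2 of -0.12 (replicate 2 against replicate 1). The tables give *Ifng* 1 transcript of the sequencing provider's own annotation beside its RefSeq transcript, and its listed length was 1232.24 bases in the Tc1 library against 1318.09 and 1289.39 bases in the Tc9 libraries. The difference in level was 3.24-fold by FPKM and 3.12-fold by counts.

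The 250 bases before the *Ifng* and *Lta* start sites are printed because these are the genes that fell, with those of *Tnfsf10*, the gene of the group with the largest difference in the other direction. They are RefSeq sequences of GRCm38.p6, written 5′ to 3′ on the strand of the gene, and capitals mark a match to 1 of 5 motifs of factors that act on these genes.
Ifng promoter, chr10:118440796-118441045, plus strand: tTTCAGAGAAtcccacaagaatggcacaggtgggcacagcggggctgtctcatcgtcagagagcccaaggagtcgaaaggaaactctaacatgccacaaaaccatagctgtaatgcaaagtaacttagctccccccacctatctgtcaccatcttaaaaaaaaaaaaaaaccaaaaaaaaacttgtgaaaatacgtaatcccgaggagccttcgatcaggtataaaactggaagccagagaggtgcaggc
Lta promoter, chr17:35205352-35205601, minus strand: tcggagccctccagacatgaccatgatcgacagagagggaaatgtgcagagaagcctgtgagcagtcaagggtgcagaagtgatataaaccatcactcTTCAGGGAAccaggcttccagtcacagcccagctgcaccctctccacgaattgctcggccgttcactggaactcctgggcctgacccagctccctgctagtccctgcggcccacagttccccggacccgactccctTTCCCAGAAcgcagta
Tnfsf10 promoter, chr3:27316827-27317076, plus strand: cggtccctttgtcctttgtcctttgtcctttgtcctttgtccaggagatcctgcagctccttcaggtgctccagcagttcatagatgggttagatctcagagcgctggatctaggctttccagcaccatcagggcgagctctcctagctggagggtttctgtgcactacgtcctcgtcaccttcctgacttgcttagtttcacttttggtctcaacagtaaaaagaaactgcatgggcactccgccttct

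The capitals in *Ifng* and *Lta* are all GAS, the site of STAT factors, spelled TTCNNNGAA, which reads the same on both strands. *Ifng* held 1, with 240 bases between it and the start site, and *Lta* held 2, with 143 and 7 bases. Of the 9 genes, 8 had a promoter entry (*Il12rb1* had none), and GAS was found in 4 of the 8, with *Ltb* and *Il12rb2* as the others, beside 7.02% of 32851 promoter windows of the same length. The T-box half-site AGGTGT, the kind of site bound by T-bet and Eomes, was found in 2 of the 8 (*Tnf* and *Ltb*) and in 11.8% of all windows, counting both strands. The NFAT core GGAAAA, bound by the calcium-driven NFAT factors, was found in 3 (*Tnf*, *Il2* and *Fasl*) and in 20.4% of windows. The kappa B core GGGNNTTTC was found in 1 (*Ltb*) and in 3.72% of windows, and the AP-1 site TGANTCA in 0 and in 6.75%. *Tnfsf10* held none of the 5. The GAS matches in *Ifng* and *Lta* overlapped no other of these motifs, and a match of letters does not show that a factor binds. The windows end at the start site that RefSeq's promoter entry uses. The RefSeq gene spans of *Lta*, which runs to base 35205578, and *Il12rb2* reach into their windows. Most of the *Lta* window and both of its GAS matches lie inside the gene span. These matches are upstream only of the start site used by the promoter entry.

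**Figure D1:**
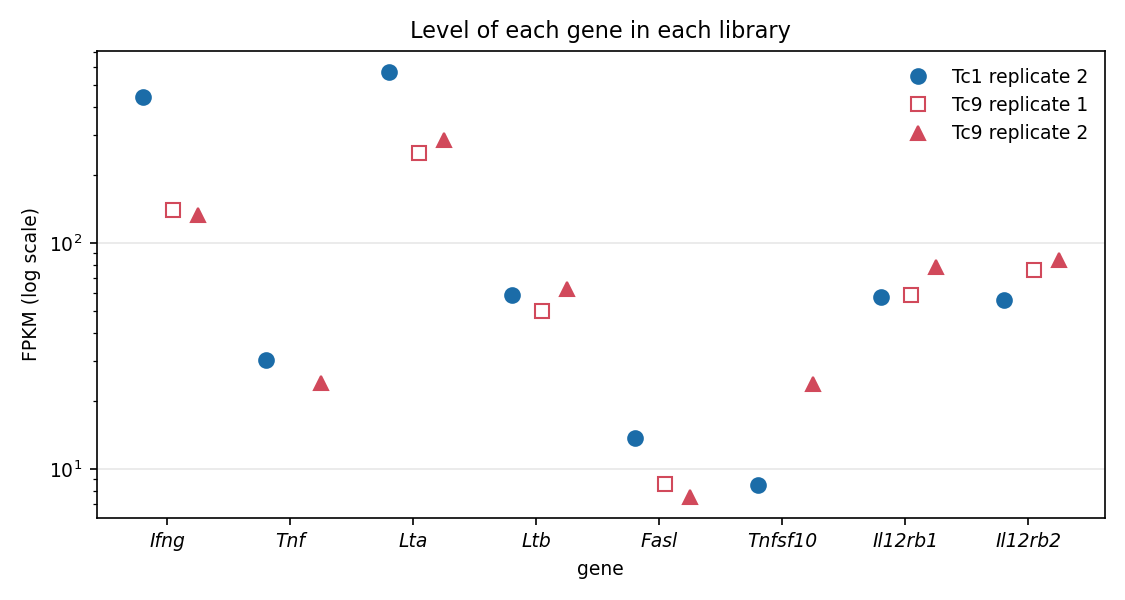
Level of each gene in FPKM (log axis) in Tc1 replicate 2, Tc9 replicate 1 and Tc9 replicate 2, 1 point per library. *Tnf* and *Tnfsf10* have no Tc9 replicate 1 point and *Il2*, at 0.08 FPKM or 0, is left out. The Tc1 point lies above both Tc9 points for *Ifng*, *Lta* and *Fasl*, and below both for *Il12rb1* and *Il12rb2*.

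*Tnf* (gene ID 21926, chr17:35199367-35202007, minus strand), which encodes the founding inflammatory cytokine of its family, had 1459 counts (30.27 FPKM) in Tc1 replicate 2 and 1114 counts (23.88 FPKM) in Tc9 replicate 2. The log2 ratio was -0.39, with a 95% counting interval of -0.5 to -0.28. The same pair of libraries gave -1.70 (-1.75 to -1.65) for *Ifng*, and the 2 intervals did not overlap. There is no replicate check on the *Tnf* value.

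*Il2* (gene ID 16183, chr3:37120713-37125954, minus strand), the T cell growth factor, had 2 counts in Tc1 replicate 2 and 0 in both Tc9 libraries. All 3 values lie at or under the floor of 3 counts, which is 0.094, 0.0964 and 0.0973 CPM in the same order, so no difference was detectable at this depth. *Il2* was left out by the filter and has no fold change. The receptor for the cytokine was present at high counts, as described below.

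*Lta*, *Tnf* and *Ltb* lie side by side on chromosome 17 within 11072 bases. *Lta* encodes lymphotoxin alpha, which is secreted as a trimer or held at the cell surface by lymphotoxin beta, the product of *Ltb*. *Lta* (gene ID 16992, chr17:35203165-35205578, minus strand) had 23851 counts in Tc1 replicate 2, 10439 in Tc9 replicate 1 and 11760 in Tc9 replicate 2, or 570.44, 250.64 and 285.7 FPKM. Both Tc9 libraries were below the Tc1 library, with a mean of 268 ± 24.8 FPKM (SD, n = 2). The log2 fold change was -1.10 (SE 0.20), with an adjusted p of 0.0231 by edgeR's quasi-likelihood test. For *Lta* the tables list 4 provider-annotated transcripts beside the RefSeq transcript.

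*Ltb* (gene ID 16994, chr17:35194507-35196305, plus strand) had 1826 counts in Tc1 replicate 2, 1520 in Tc9 replicate 1 and 1893 in Tc9 replicate 2. In FPKM these were 58.59, 49.82 and 62.5. The Tc9 libraries fell on either side of the Tc1 library, and their own log2 difference of 0.32 was larger than the log2 fold change of -0.10 (SE 0.24, adjusted p = 0.824, edgeR's quasi-likelihood test). The 3 neighboring genes gave different values in the replicate 2 libraries, with a log2 ratio of -1.02 for *Lta* (-1.05 to -0.99), -0.39 for *Tnf* and 0.05 for *Ltb* (-0.04 to 0.15). Within a library, *Lta* stood at 9.74 times the FPKM of *Ltb* in the Tc1 library and at 5.03 and 4.57 times in Tc9 replicates 1 and 2. The gap between *Tnf* and *Lta* is 1157 bases and that between *Ltb* and *Tnf* 3061 bases. The counting is not stated to use strand.

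The values of the 2 death ligands lay on opposite sides of 0, without a call for *Fasl* or a test for *Tnfsf10*. *Fasl* (gene ID 14103, chr1:161780691-161788495, minus strand), the ligand of Fas, had 785 counts in Tc1 replicate 2, 478 in Tc9 replicate 1 and 417 in Tc9 replicate 2, or 13.72, 8.56 and 7.53 FPKM. Both Tc9 libraries were below the Tc1 library. The log2 fold change was -0.81 (SE 0.21) and did not pass, with an adjusted p of 0.0685 by edgeR's quasi-likelihood test and an unadjusted p of 0.00867. *Fasl* did pass under 5 of the 8 other settings tested, with adjusted p from 0.00362 to 0.254 over the 8.

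*Tnfsf10* (gene ID 22035, chr3:27317077-27339665, plus strand), which encodes TRAIL, had 1306 counts in Tc1 replicate 2 and 3515 in Tc9 replicate 2, or 8.5 and 23.74 FPKM. The log2 ratio was 1.43 with a counting interval of 1.34 to 1.52, and it has no replicate check. Among the 6161 genes of the replicate 2 libraries that passed the filter, 10.5% had a log2 ratio above 1, as *Tnfsf10* did, and 4.72% had one below -1, as *Ifng* and *Lta* did. *Tnfsf10* had 0.62 times the FPKM of *Fasl* in Tc1 replicate 2 and 3.15 times in Tc9 replicate 2. The order of the 2 death ligands was thus turned around between these libraries.

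**Figure D2:**
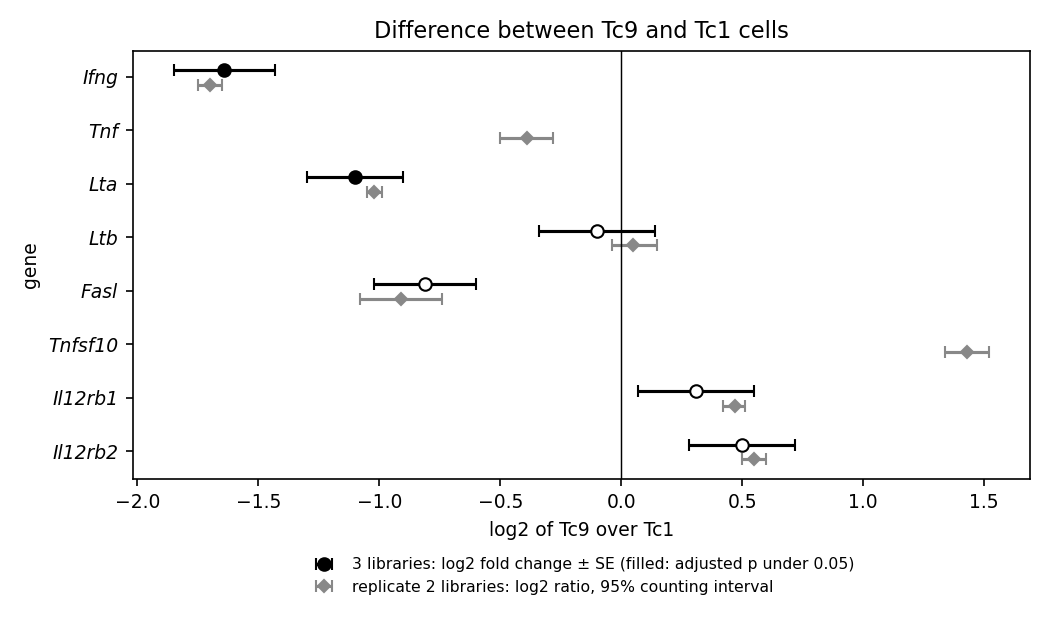
Log2 difference between Tc9 and Tc1 cells for 8 genes (*Il2* is at the floor). Circles are log2 fold changes over 3 libraries with SE bars, filled where the adjusted p is under 0.05, and gray diamonds are log2 ratios of the replicate 2 libraries with 95% counting intervals. *Ifng* (-1.64) and *Lta* (-1.10) are the filled circles, and *Tnfsf10* (1.43) lies farthest to the right.

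The IL-12 receptor chains stood somewhat higher in Tc9 cells and did not pass the test. *Il12rb1* (gene ID 16161, chr8:70808360-70823542), the chain also used by the IL-23 receptor, had 7633 counts in Tc1 replicate 2, 8401 in Tc9 replicate 1 and 10540 in Tc9 replicate 2. Its FPKM values were 57.4, 59.06 and 78.43, so Tc9 replicate 1 was close to the Tc1 library and Tc9 replicate 2 was above both. The log2 fold change was 0.31 (SE 0.24, adjusted p = 0.444, edgeR's quasi-likelihood test), against a log2 difference of 0.33 within the Tc9 pair. The tables give *Il12rb1* 1 provider-annotated transcript, and its listed length was 4297.57, 4709.51 and 4499.24 bases in the same order.

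*Il12rb2* (gene ID 16162, chr6:67285986-67376293, minus strand), the signaling chain that activated type 1 cells carry, had 4827, 6546 and 7058 counts, or 55.93, 76.03 and 84.13 FPKM. Both Tc9 libraries were above the Tc1 library and within a log2 of 0.11 of each other. The log2 fold change was 0.50 (SE 0.22, adjusted p = 0.215, edgeR's quasi-likelihood test). Within a library *Il12rb1* stood at 1.03, 0.777 and 0.932 times the FPKM of *Il12rb2* in the same order. Of the 6 genes tested, *Ifng*, *Lta* and *Fasl* had both Tc9 libraries below the Tc1 library, which 37.8% of all genes tested had, and *Il12rb1* and *Il12rb2* had both above it, which 44.0% had. With 1 Tc1 library such an order is frequent and is given as a description.

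Ranked by FPKM, *Lta* was the most abundant of these transcripts and *Ifng* the next in all 3 libraries. In Tc9 cells *Il12rb2* (80.1 ± 5.73 FPKM, SD, n = 2), *Il12rb1* (68.7 ± 13.7) and *Ltb* (56.2 ± 8.97) followed. The Tc9 values of *Il12rb2* and *Il12rb1* overlapped, as did those of *Il12rb1* and *Ltb*. In the Tc1 library *Ltb*, *Il12rb1* and *Il12rb2* lay within 55.93 to 58.59 FPKM, and their order there has no replicate to rest on. *Tnf*, *Fasl* and *Tnfsf10* were below these in every library that reached them. *Ifng* stood at 0.773 times the FPKM of *Lta* in the Tc1 library and at 0.555 and 0.464 times in the Tc9 libraries. *Tnf* stood at 0.0531 times *Lta* in Tc1 replicate 2 and 0.0836 times in Tc9 replicate 2.

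**Figure D3:**
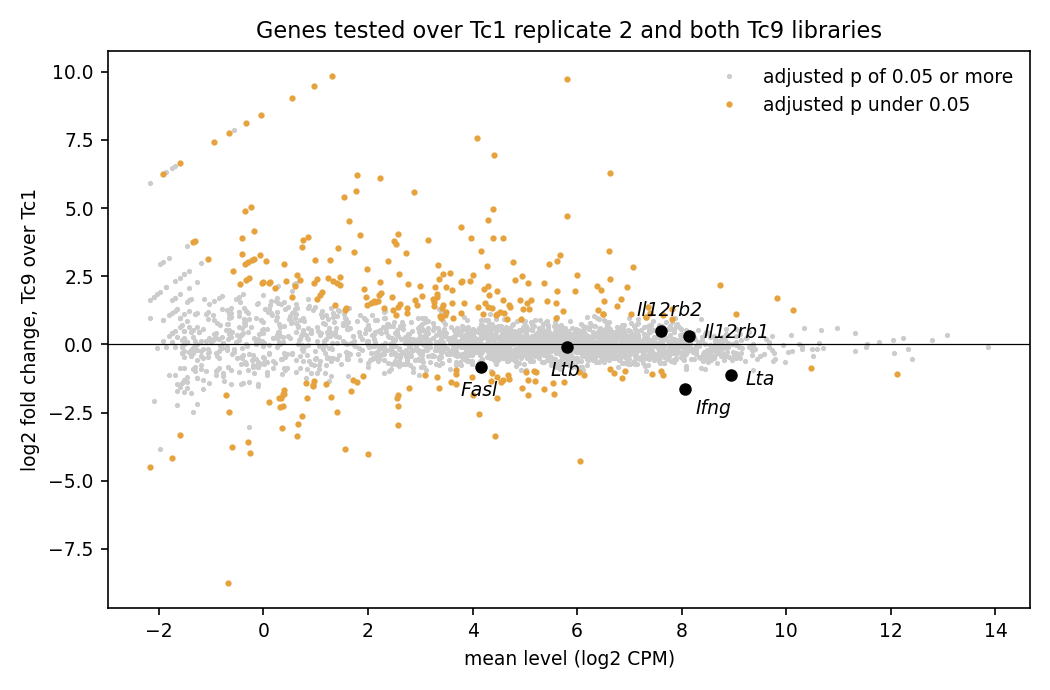
Log2 fold change, Tc9 over Tc1, against mean log2 CPM for the 2622 genes tested over 3 libraries, orange where the adjusted p is under 0.05; black points are the 6 genes tested. *Ifng* and *Lta* lie at high level and below most genes, and *Fasl*, *Ltb*, *Il12rb1* and *Il12rb2* lie within or at the edge of the gray cloud.

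The genes with a pattern most like that of *Ifng* over the 3 libraries, by distance in centered log2 CPM among 447 genes of similar level, included *H2-Q8* (0.45) and *Lta* (0.48). *H2-Q8*, a nonclassical MHC class I gene with 9788, 4483 and 4571 counts in Tc1 replicate 2 and Tc9 replicates 1 and 2, belongs to a family of near-identical genes among which reads can be split, so its value is uncertain. For *Lta*, among 210 genes, they were *Ccr7* (0.18), the lymph node homing receptor, *Slc3a2* (0.19), the shared chain of amino acid transporters, and *Irf8* (0.2), an interferon-response transcription factor. The counts in the same library order were 15814, 7488 and 9298 for *Ccr7*, 12298, 6040 and 7270 for *Slc3a2*, and 14755, 7556 and 8654 for *Irf8*. With 3 libraries these distances describe a shared order of levels and no more.

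Upstream of the type 1 cytokines, 15 genes of the IL-12 and IL-18 pathways and their transcription factors were listed, and the tables allowed a test of 5. Of these 0 were called higher and 2 lower, both of them among the 4 in the 3-library range, where 7.51% of all genes were called higher and 3.2% lower. The 5 had a median log2 fold change of -0.58, beside a median of 0.05 over all genes tested in the 3-library range. The 2 that fell encode both chains of the receptor for IL-18, a cytokine that raises IFN-γ production together with IL-12. *Il18r1* had 1742 counts in Tc1 replicate 2, 629 in Tc9 replicate 1 and 511 in Tc9 replicate 2, a log2 fold change of -1.61 (SE 0.22, adjusted p = 0.00967, edgeR's quasi-likelihood test). *Il18rap* had 1337, 610 and 486 counts (-1.29, SE 0.22, adjusted p = 0.0198, by the same edgeR test). Both Tc9 libraries were below the Tc1 library for each chain. The calls of *Il18r1* and *Il18rap*, like those of *Ifngr2* and *Cxcl10* given below, were lost without the filter on low counts. *Eomes*, a T-box factor that drives *Ifng*, had 2965, 2074 and 1886 counts and did not pass (log2 fold change -0.58, SE 0.21, edgeR adjusted p = 0.152). *Jak2*, the kinase bound to the IL-12 receptor, had 2439, 5353 and 4134 counts, with a log2 fold change of 0.96 (SE 0.26, edgeR adjusted p = 0.0748). *Runx3*, reached by all 4 libraries, had a log2 fold change of 0.07 (edgeR adjusted p = 0.654). In that range 17.4% of 1284 genes were called higher and 16.7% lower. *Stat4*, which carries the IL-12 signal to the nucleus, stood at 3378 counts in Tc1 replicate 2 against 3489 in Tc9 replicate 2, and the counting interval of its log2 ratio of 0.05 ran from -0.02 to 0.12. *Il12a* had 0, 1 and 0 counts and *Il12b* 0 in all 3 libraries, and neither could be tested.

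Receptors for the ligands were listed as 11 genes, of which 6 were tested, 1 was called higher and 0 lower, beside 7.51% and 3.2% of all genes. Their median log2 fold change was 0.26, beside 0.05. The 1 that rose was *Ifngr2*, the signaling chain of the IFN-γ receptor. It had 393 counts in Tc1 replicate 2, 1309 in Tc9 replicate 1 and 1104 in Tc9 replicate 2, a log2 fold change of 1.62 (SE 0.24, adjusted p = 0.0124, edgeR's quasi-likelihood test). The ligand-binding chain *Ifngr1* had 1180, 1019 and 1009 counts (-0.22; edgeR adjusted p = 0.529). *Fas*, the receptor of Fas ligand, had 379, 328 and 281 counts, with a log2 fold change of -0.31 (SE 0.23, edgeR adjusted p = 0.412). The IL-2 receptor chains were abundant, with *Il2ra* at 46793, 74240 and 68904 counts (0.61, SE 0.19, edgeR adjusted p = 0.101) and *Il2rb* at 30547, 41312 and 50262 (0.58, SE 0.22, edgeR adjusted p = 0.157). In both genes each Tc9 library was above the Tc1 library, and neither passed by edgeR's adjusted p. What the receptor list gave by DESeq2 is stated further below. The shared chain *Il2rg* had 10068, 9253 and 9935 counts (-0.07, SE 0.21, edgeR adjusted p = 0.859). *Tnfrsf10b*, the mouse TRAIL receptor, stood at 643 counts in Tc1 replicate 2 against 985 in Tc9 replicate 2 (log2 ratio 0.61, 0.47 to 0.76). The TNF receptors *Tnfrsf1a* and *Tnfrsf1b* had log2 ratios of 0.32 and 0.05. *Tnfrsf14*, a receptor that binds lymphotoxin alpha and LIGHT, had 678 and 1187 counts (0.81, 0.67 to 0.94). The lymphotoxin beta receptor *Ltbr* had 5, 9 and 8 counts and was left out by the filter.

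**Figure D4:**
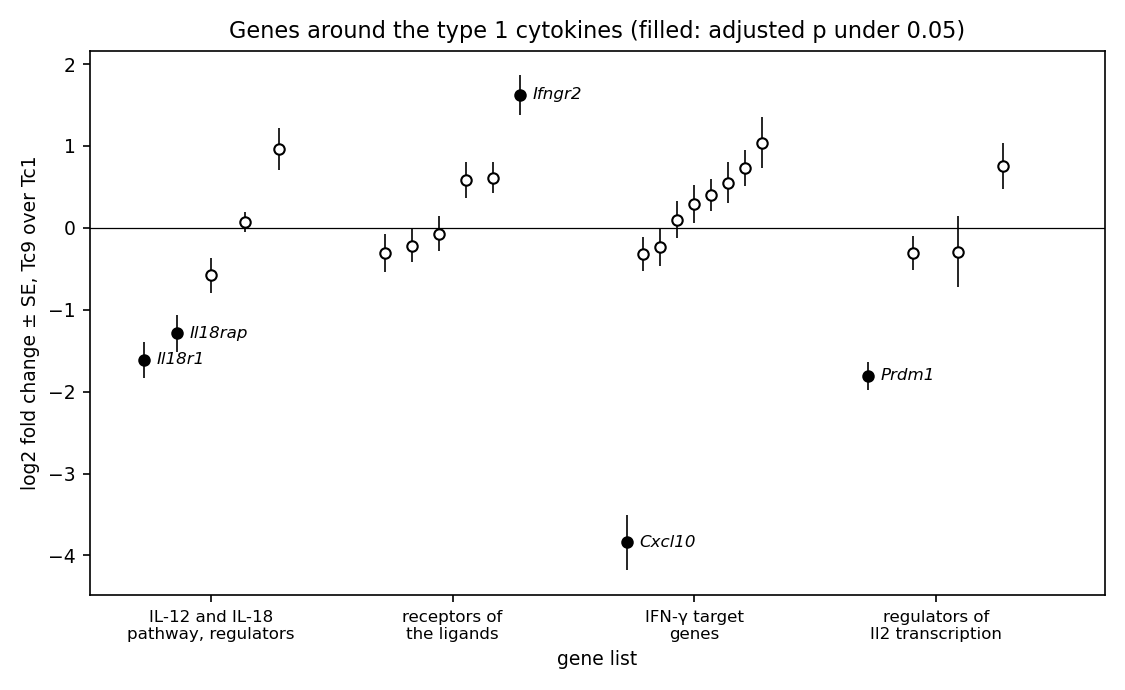
Log2 fold change with SE, Tc9 over Tc1, of each tested gene of 4 gene lists around these cytokines, ordered by value within a list; filled points have an adjusted p under 0.05. *Il18r1*, *Il18rap*, *Cxcl10* and *Prdm1* are filled and below 0, and *Ifngr2* is filled and above 0.

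Other ligands of the TNF superfamily were reached by the replicate 2 libraries alone or by fewer. Of the 12 listed, 6 gave a log2 ratio, with a median of -0.65 beside 0.03 over all genes of these libraries. Of the 6, 1 lay above 1 and 2 below -1, beside 10.5% and 4.72% of all 6161 genes, and these 3 rest on 2 to 98 counts. *Tnfsf13b*, which encodes the B cell survival factor BAFF, had 13 counts against 98 in Tc9 replicate 2 (log2 ratio 2.74, 2.09 to 3.74). *Cd70* had 22 and 2 counts (-2.58, -5.4 to -1.52) and *Tnfsf9*, the ligand of 4-1BB, 42 and 17 counts (-1.21, -2.11 to -0.5). *Tnfsf11*, which encodes RANKL, had 1198 and 664 counts (-0.85, -0.99 to -0.71). *Tnfsf8*, which encodes the ligand of CD30, had 981 and 715 counts (-0.45, -0.59 to -0.32), and *Tnfsf4*, which encodes OX40 ligand, 182 and 205 (0.17, -0.11 to 0.46). None of these ratios has a replicate check.

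Of the genes of death receptor signaling, the initiator caspase gene *Casp8* had a log2 fold change of 0.06 (edgeR adjusted p = 0.716), the adapter *Fadd* 0.14 (0.722) and the inhibitor of caspase 8 *Cflar* -0.39 (0.396). The values in parentheses are adjusted p by edgeR's quasi-likelihood test. No count is given over this list, since it is not reported in full.

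Of 14 listed genes that IFN-γ induces, 9 were tested, 0 were called higher and 1 lower, beside 7.51% and 3.2% of all genes. Their median log2 fold change was 0.29, beside 0.05. The 1 that fell was *Cxcl10*, a chemokine that attracts T cells, with 238 counts in Tc1 replicate 2, 21 in Tc9 replicate 1 and 12 in Tc9 replicate 2 (log2 fold change -3.84, SE 0.34, adjusted p = 0.00271, edgeR's quasi-likelihood test). *Irf1* had 2590, 4398 and 4184 counts (0.73, SE 0.22, edgeR adjusted p = 0.0975), and *Socs1*, a feedback inhibitor of cytokine receptors, had 1467, 2404 and 3646 (1.04, SE 0.31, edgeR adjusted p = 0.0975). Both stood higher in each Tc9 library without passing here, and both passed with DESeq2. The GTPase genes *Igtp*, *Irgm1*, *Gbp2* and *Gbp4* had log2 fold changes of 0.40, 0.55, 0.10 and 0.29, and the immunoproteasome genes *Psmb8* and *Psmb9* of -0.32 and -0.24, none of them past the edgeR threshold. *Gbp7* had 1541 and 555 counts in Tc1 and Tc9 replicate 2 (log2 ratio -1.47, -1.61 to -1.33). *Tap1*, the antigen peptide transporter, had 10360 and 14424 counts (0.48, 0.44 to 0.51).

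Among 11 regulators of *Il2* transcription, 4 were tested, 0 were called higher and 1 lower (median log2 fold change -0.30). Of these, 2 belong to the 4-library range, the called gene among them, where 16.7% of all genes were called lower, and 1 of 4 is a count too small to set against that share. *Prdm1*, which encodes Blimp-1, a repressor of *Il2*, was reached by all 4 libraries, with 336 and 359 counts for Tc1 and 89 and 108 for Tc9. Both Tc1 counts lay above both Tc9 counts, an order whose share among all genes was not taken. The log2 fold change was -1.81 (SE 0.17, adjusted p = 3.96e-05, edgeR's quasi-likelihood test). *Bcl6*, whose product and Blimp-1 repress each other, had 38 and 34 counts against 49 and 73 (0.76, SE 0.28, edgeR adjusted p = 0.0607). The AP-1 genes *Jun*, with 1928, 1504 and 1609 counts in the 3 libraries that reached it, and *Fos*, with 22, 20 and 16, had log2 fold changes of -0.31 and -0.29 (edgeR adjusted p = 0.387 and 0.707). At an unadjusted p under 0.05 the counts higher and lower were 1 and 3 for the upstream genes, 3 and 0 for the receptors, 2 and 1 for the IFN-γ targets and 1 and 1 for the *Il2* regulators. By DESeq2's adjusted p they were 1 and 2, 2 and 0, 2 and 1, and 0 and 1 in the same order. Of all genes, 16.5% were higher and 10.2% lower at the unadjusted p in the 3-library range, and 22.9% and 23.1% in the 4-library range. DESeq2 called 9.04% and 4.0% in the former and 15.5% and 14.6% in the latter.

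The labelled cell type was checked against its markers. The 8 CD8 T cell markers were above the floor wherever reached, with *Cd8a* at 19330 to 21622 counts in all 4 libraries. Of the 7 tested, 4 were called by edgeR, with log2 fold changes of 0.73 for *Cd3e* (adjusted p = 0.0108), 0.49 for *Cd3g* (0.00995), -0.44 for *Cd2* (0.0107) and -0.61 for *Cd5* (0.00397). The 2 higher and 2 lower stand beside 17.4% and 16.7% of all genes of the 4-library range. Of 11 myeloid markers, 8 in Tc1 replicate 2 and 9 in each Tc9 library had 3 counts or fewer, *Lyz2* among them, and the summed count, nearly all from *Cd68*, was 229 (over the 6 markers that table reached) and 244 for Tc1 against 374 and 459 for Tc9 cells. *Cd68* itself had a log2 fold change of 0.84 (edgeR adjusted p = 0.00295). The B cell markers used, 3 in number, summed to 165 in Tc1 replicate 2 and to 396 and 484 in the Tc9 libraries, mainly from *Cd79b* (log2 fold change 1.46, edgeR adjusted p = 0.0219). The NK markers had 8 counts or fewer. Of the dendritic cell markers, *Itgax* had 154, 171 and 188 counts (log2 fold change 0.22, edgeR adjusted p = 0.597), *Flt3* 6, 0 and 3, *Xcr1* 15 and 33 in the replicate 2 libraries (log2 ratio 1.04, 0.27 to 2.01) and *Batf3* 1405 in Tc9 replicate 2, which alone reached it. Of the fibroblast and vessel markers, *Pecam1* had 445 and 446 counts in the replicate 2 libraries and the other 5 had 5 counts or fewer. *Cd4* had 45 to 58 counts, whereas *Foxp3*, the regulatory T cell factor, had 35 counts in Tc1 replicate 2 and 1592 in Tc9 replicate 2. Only these libraries reached *Foxp3*, so its difference has no replicate check, and a relation to *Tnfsf10* or *Ifng* was not tested. *Pmel*, the B16 antigen, had 70 and 117 counts in the replicate 2 libraries and *Tyr* 6 and 13. *Tyrp1* and *Dct* were at 0 wherever reached, *Mlana* was at 0 in Tc9 replicate 2, which alone reached it, and *Mitf* had 5 to 7 counts. The part of these markers in the results above was not tested. Spread between replicates was taken over genes of the 4-library range with a mean count of at least 400 in the pair. The 2 Tc9 libraries differed from each other by a median absolute log2 of 0.199 over 854 such genes and the 2 Tc1 libraries by 0.053 over 845.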

How the data were processed

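RNA of sorted tumor-infiltrating Tc1 and Tc9 cells was measured in 2 libraries per group. The deposited values are expected counts that were not normalized, FPKM scaled by length and library size, and the length in bases. Per the labels the genome build was mm10; the aligner and counter are not given in the sources used here. Genes absent within a table's range were taken as 0, since no table lists a gene at 0. One incomplete last row was dropped. Depth was the median ratio of count to FPKM against Tc9 replicate 2 over 296 to 1330 genes with at least 500 counts, multiplied by TMM factors of 0.99, 0.983, 1.01 and 1.02. Rounded counts were tested two-sided with edgeR 4.0.16 (R 4.3.3; filterByExpr, minimum count 10; Benjamini-Hochberg adjustment) without a replicate block. Log2 ratios used a prior count of 2 and Wilson intervals. Alternatives used DESeq2 1.42.0 and limma 3.58.1. The genes and lists were chosen with earlier results of these data known. All 9 genes are described; of the lists, genes past the threshold, all receptors and the direct regulators are named. *Tnfsf13b*, *Cd70*, *Tnfsf9*, *Tnfsf11*, *Tnfsf8*, *Tnfsf4*, *Gbp7*, *Tap1*, *Jun* and *Fos* were added with their values in view. A few genes are not reported here and were left out of the lists; other list genes are counted without being named. Intervals and floors cover counting error only.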

Additional observations from a re-analysis of the deposited data

How the results depend on the processing

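The 2 calls of the group rest on 1 Tc1 library and a spread taken from 2 Tc9 libraries, and leaving out a Tc9 library leaves no test. Over 10 other settings the log2 fold change of *Ifng* ranged from -1.70 to -1.59 (past the threshold in 7 of 8 tests, adjusted p 4.08e-11 to 0.203) and that of *Lta* from -1.19 to -1.02 (7 of 8, 2.16e-05 to 0.209); *Il12rb1*, *Il12rb2* and *Ltb* passed in 0 of 8, and *Ltb* ranged from -0.26 to 0.05. Without a filter on low counts, edgeR called 0 genes higher and 0 lower over 3 libraries, with *Ifng* at -1.64 (adjusted p 0.203) and *Lta* at -1.1 (0.209); 598 of 3431 genes then had an unadjusted p under 0.05, and DESeq2 with the filter called 342. The lists of upstream, receptor and IFN-γ target genes then had 0 calls, and under DESeq2 the receptors had 2 and the targets 3. *Fasl* passed with a minimum count of 30 (-0.81, adjusted p 0.0177), DESeq2 size factors (-0.85, 0.00362), depth alone (-0.77, 0.012), TMM factors of the 3-library range (-0.84, 0.00449) and the DESeq2 test (-0.81, 0.0473). In that order, the first 4 of these gave 305, 321, 371 and 328 genes higher and 154, 217, 163 and 211 lower, against 197 and 84, and an adjusted p under 0.1 gave 144 lower. The cause of these shifts was not tested. Over 4 libraries, 130 genes were higher and 110 lower without a filter, against 224 and 214; leaving out 1 library gave 72 to 405 higher and 39 to 405 lower, with 72 and 39 without Tc1 replicate 1, 82 and 54 without Tc1 replicate 2, 405 and 405 without Tc9 replicate 1, and 343 and 350 without Tc9 replicate 2. All 3 libraries of the fit without Tc1 replicate 1 are also in the fit with 4 libraries. Agreement between these fits is therefore no check on a fit with 1 Tc1 library. With a replicate block, 231 genes were higher and 213 lower, and 406 of 438 calls were shared; nothing says that same-numbered libraries share mice (correlation of their deviations across genes -0.0644), and the 3-library fit allows no block. The log2 ratios of *Tnf* (-0.42 to -0.33) and *Tnfsf10* (1.38 to 1.48) stayed within their counting intervals.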

Other observations

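Several regulators and partners of the type 1 program were reached by Tc9 replicate 2 alone and allow no comparison with Tc1 cells. In that library *Tbx21*, which encodes T-bet, had 4319 counts, *Tyk2*, a kinase of the IL-12 receptor, 4102, the IL-27 receptor gene *Il27ra* 2296, the IL-21 receptor gene *Il21r* 8999, the IFN-γ-induced GTPase gene *Iigp1* 4559, *Tnfsf14*, which encodes LIGHT, 410, the TNF receptor adapter *Tradd* 297 and *Il23a* 18. *Ifng* had 4700 counts in the same library. Between the replicate 2 libraries, the NF-κB genes *Rel* and *Rela* had log2 ratios of -0.62 and 0.61 and *Nfkb1* 0.01, and the NFAT genes *Nfatc1* and *Nfatc2* 0.39 and 0.24, with no replicate check.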
